A study of Homo sapiens with 9 samples.

Results

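HCCC-9810 is an established line grown from a human cholangiocarcinoma, a cancer of the bile ducts, and the comparison described here sets its gene expression with MBD5 siRNAs against its expression with a control RNA. It rests on the 3 arrays titled si-MBD5 and the 3 titled si-Control, 6 of the 9 arrays of the series, and on all 49293 probe sets that are not array controls. The other 3 arrays, from cells given si-BAP1, entered the estimate of the spread and a direct comparison at the end. All 9 cultures received such an RNA, so no group shows untreated cells. The control is a small interfering RNA by its title and a short hairpin RNA by its treatment field, and which was used is not settled. The labels give the MBD5 siRNAs in the plural, without sequence, dose or time. Within a group the 3 arrays are labelled as biological replicates, and the p-values below measure the spread between such samples of 1 line.

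MBD5 belongs to the family of proteins with a methyl-CpG-binding domain, a fold by which several of its members read methylated DNA, although MBD5 and its close relative MBD6 are not known to read methylation that way. Both bind the Polycomb repressive deubiquitinase PR-DUB, in which BAP1 with an ASXL subunit removes ubiquitin from histone H2A. Loss of 1 copy of MBD5 causes a neurodevelopmental disorder, and BAP1 is a tumour suppressor that is often mutated in bile duct cancers.

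The measure throughout is intensity, the brightness of a probe set on a linear scale. A gene is represented by its brightest probe set, and was tested where the mean of that probe set was above 25.5, the 40th percentile of all probe sets. This left 12431 of 18132 genes. Group values are mean ± SD over n = 3 arrays. A log2 fold change is the si-MBD5 mean of log2(intensity + 16) minus the si-Control mean, and the added 16 makes it understate a change, most of all in dim genes. A gene is said to rise or fall where the limma adjusted p was under 0.05.

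The level of MBD5 itself was too near the floor of the arrays for a verdict on the knockdown. Its brighter probe set read 6.21, 6.21 and 6.11 on the si-MBD5 arrays and 7.16, 7.06 and 6.90 on the si-Control arrays, with 8.66, 7.61 and 6.99 on the si-BAP1 arrays. The si-MBD5 and si-Control arrays did not overlap, yet the exact permutation p (2-sided) was 0.1, the smallest that 3 against 3 arrays allow, and the limma fit over all probe sets gave a log2 fold change of -0.06 (SE 0.027, adjusted p = 0.308). The dimmer probe set read 2.34 ± 0.0812 against 2.39 ± 0.368 (exact permutation p = 0.8). BAP1 was not analysed here. As a comparison of the material, the ratio of 3' to 5' signal of ACTB was 12.3 ± 0.715 in si-MBD5 and 12.2 ± 0.52 in si-Control. That of GAPDH was 1.07 ± 0.00461 and 1.06 ± 0.0258 (exact permutation p = 0.8 and 0.7). The ACTB signal was much stronger at the 3' end in both groups. These ratios compare the groups and do not show that the RNA was intact. Of 16 cholangiocyte markers on the arrays 9 were above the filter, among them the biliary keratin KRT7 (979.6 ± 44.0 against 1118 ± 42.4) with KRT18, KRT8, ANXA4, SOX4 and MUC1. KRT19 (20.4 ± 0.304 against 20.6 ± 2.03), EPCAM, CFTR, SPP1, TFF1, ONECUT1 and AQP1, also markers of that lineage, were not. Summed over the list, these markers read 4847 to 5136 in si-MBD5 and 5100 to 5491 in si-Control. Of other cell types, 5 of 11 hepatocyte markers, 6 of 12 fibroblast and endothelial markers and 4 of 9 immune markers were above the filter. Their sums overlapped between the groups, with 644 to 652 against 627 to 668, 316 to 346 against 316 to 337, and 239.7 to 277 against 255 to 263. Of these only PDGFRB, higher, and ACTA2, lower, passed the test. Among the hepatocyte markers CPS1 was the brightest, with 401 ± 23.0 against 413 ± 30.1. ALB, the main hepatocyte product, read 8.05 ± 0.662 against 8.62 ± 1.18.

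Many genes moved, and most moved little. Of the 12431 genes, 2026 passed (16.3%), 908 higher (7.30%) and 1118 lower (8.99%) in si-MBD5, with a median size of 0.21 log2. Counts in the gene lists below stand against these shares of all genes. By at least 0.25 log2, 306 rose (2.46%) and 354 fell (2.85%). By at least 0.5 log2, 22 rose (0.177%) and 39 fell (0.314%), and by at least 1 log2 only GDF15 and CDKN1A fell (0.0161%) and 0 rose. Split by mean intensity into 3 equal parts, the dimmest genes passed in 5.77% and the brightest in 25.1%. In the brightest part, 440 of 4144 rose and 600 fell. A list of bright genes can thus exceed the shares of all genes by brightness alone. The 3 si-MBD5 arrays lay wholly above or below the 3 si-Control arrays in 30.4% of genes. The 30 largest rises and 30 largest falls were taken only from such genes, so lack of overlap in them is no result. The median log2 fold change of all genes was 0.0001, so the 2 groups were level at the median. The split of calls still moved with scaling. It was 1110 higher and 1055 lower after quantile normalization, and 699 and 1084 after median centring. The count of genes that passed depended on single arrays: without si-Control replicate 2 it was 1267 (588 higher and 679 lower), and without si-MBD5 replicate 1 the falls were 713.

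**Figure D1:**
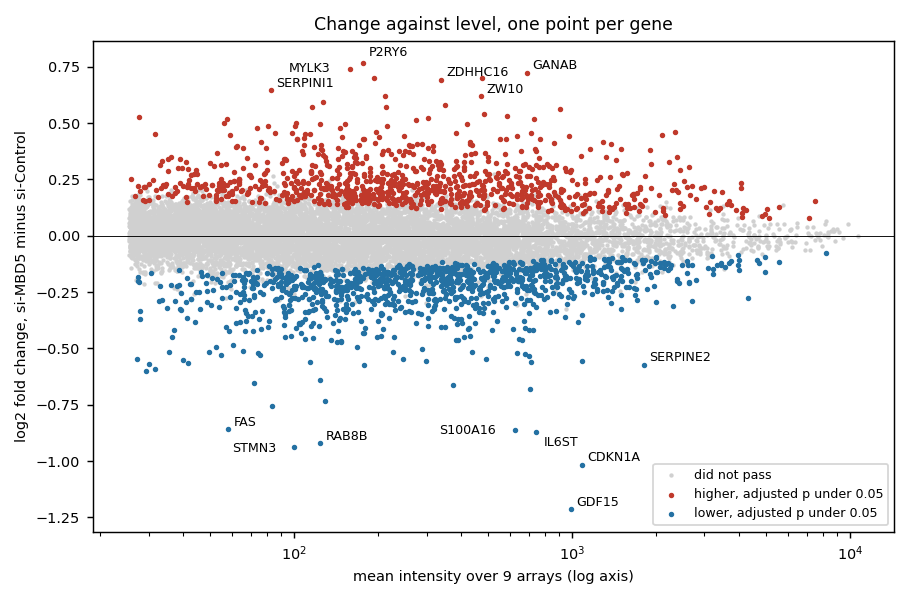
Each point is a gene, with its mean intensity over 9 arrays on a log axis and its log2 fold change, si-MBD5 minus si-Control, on the vertical axis; red and blue points passed an adjusted p of 0.05. The 908 rises stay below 0.8 log2, while 7 falls lie beyond -0.85, with GDF15 at -1.21 and CDKN1A at -1.02.

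The 2 deepest falls were in targets of p53, the transcription factor that answers DNA damage and other stress by stopping the cell cycle or starting cell death. Of 24 tested targets that serve arrest and stress responses 15 fell and 0 rose (62.5% lower, against 8.99% of all genes), and their median log2 fold change was -0.29. With any 1 of the 6 arrays left out, 11 to 14 fell. In RNA of a whole culture, fewer cells that express a gene and less RNA per cell cannot be told apart. GDF15, a secreted stress cytokine, read 659, 676 and 748 on the si-MBD5 arrays and 1693, 1666 and 1533 on the si-Control arrays. CDKN1A, the inhibitor of cyclin-dependent kinases through which p53 halts the cycle, read 789, 782 and 853 against 1655, 1713 and 1583. The limma adjusted p was 2.99e-08 for GDF15 (log2 -1.21, SE 0.053) and 2.17e-08 for CDKN1A (log2 -1.02, SE 0.04). All 5 GDF15 probe sets above the filter fell (log2 -1.39 to -0.25), as did both of CDKN1A.

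Other regulators of growth and repair in this group moved the same way. SESN1, a sestrin that restrains growth signalling, read 61.4, 66.3 and 57.7 against 121, 107 and 118 (log2 -0.75). GADD45A, which acts in the DNA damage checkpoint, read 529, 600.0 and 555 against 900.1, 899 and 924 (log2 -0.68). Both were taken from genes whose groups did not overlap, so lack of overlap in them is no result. DDB2, which recognises ultraviolet damage in DNA, fell from 476 ± 13.4 to 342 ± 16.5, and PHLDA3, an inhibitor of AKT signalling, from 507 ± 6.97 to 377 ± 15.6 (log2 -0.46 and -0.41). ZMAT3, TIGAR, CCNG1, PLK2, AEN, RRM2B, MDM2, TRIAP1 and PPM1D completed the 15, with changes between -0.52 and -0.15 log2. MDM2, the ligase that degrades p53, read 127 ± 17.8 against 157 ± 14.4. RPS27L, a ribosomal protein paralogue that is also a p53 target and was listed with ribosomal proteins here, fell from 3118 ± 117 to 2549.9 ± 87.5, while 31 of the 35 tested ribosomal proteins did not pass.

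**Figure D2:**
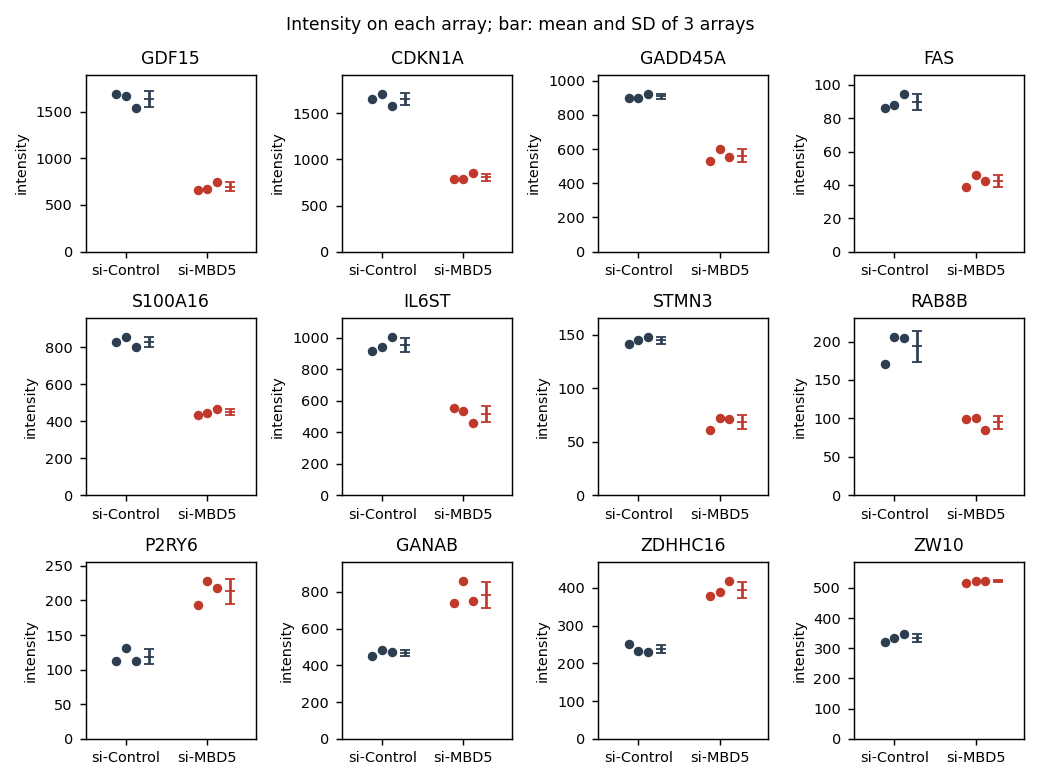
Intensity (linear axis from 0) of 12 genes on each si-Control array (dark points) and si-MBD5 array (red points), with bars for mean and SD of 3 arrays. Of the 12, 8 are lower and 4 higher in si-MBD5. All were chosen among genes whose groups did not overlap, so the lack of overlap is no result.

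Among p53 targets that act in cell death, 7 of 15 fell (46.7%, against 8.99% of all genes) and 1 rose (median log2 -0.13). The falls were 4 without si-Control replicate 1 or 2, and 4 without si-MBD5 replicate 1 or 3. FAS, a death receptor of the cell surface, read 38.5, 45.7 and 42.4 against 85.8, 88.1 and 94.8 (log2 -0.86, limma adjusted p = 6.80e-06). BAX, which permeabilises mitochondria, fell from 526 ± 12.9 to 438 ± 26.6, and TNFRSF10D, a decoy receptor for TRAIL, from 88.7 ± 2.78 to 65.6 ± 10.9. PERP, a desmosomal protein, rose from 377 ± 14.3 to 447 ± 40.5 on all 3 of its probe sets, a call that ended without si-Control replicate 2 (limma adjusted p = 0.054). In the wider list of apoptosis regulators 5 of 25 fell and 0 rose, 3 of 25 without any of 4 arrays (si-Control 1, 2 or 3 or si-MBD5 1). They were BAX with BAK1 (log2 -0.24), the other pore former, MCL1 (-0.36), a survival protein, and BAD and CASP2. MCL1 was not uniform. On 4 of its 6 probe sets it fell, and its call ended with the cross-matching _x_at and _s_at probe sets left out (log2 -0.08, limma adjusted p = 0.432).

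The promoters of the 2 genes that fell most are shown because these p53 targets moved together. Sequences are from RefSeq (GRCh38.p14), the 250 bases before the gene start on the plus strand, at chr6:36678464-36678713 and chr19:18385908-18386157. Capitals mark GC boxes, the letters GGGCGG or their reverse complement CCGCCC, the classical sites of SP1-type factors.
CDKN1A: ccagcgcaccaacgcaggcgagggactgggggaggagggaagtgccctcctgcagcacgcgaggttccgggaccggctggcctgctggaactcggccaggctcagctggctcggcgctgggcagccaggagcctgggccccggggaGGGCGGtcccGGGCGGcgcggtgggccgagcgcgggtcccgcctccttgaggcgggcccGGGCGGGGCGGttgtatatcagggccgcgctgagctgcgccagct
GDF15: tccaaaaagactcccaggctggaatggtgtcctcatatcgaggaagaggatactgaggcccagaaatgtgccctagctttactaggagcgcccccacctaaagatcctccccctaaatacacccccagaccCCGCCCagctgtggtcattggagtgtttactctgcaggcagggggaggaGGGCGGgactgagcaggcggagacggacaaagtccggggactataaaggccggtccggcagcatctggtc
CDKN1A had 4 GC boxes, 2 of them overlapping, and GDF15 had 2. Those of FAS and DDB2, next by adjusted p among the promoters used here, had 1 and 0. A GC box stood in 13 of 16 promoters of p53 targets that fell (81.2%), in 10 of 12 of those that did not pass (83.3%) and in 42.3% of all 27305 promoters. The p53 half-site, searched by name on both strands, was in 0 of the 4 windows, in 2 of the 16 (12.5%), in 0 of the 12 and in 5.53% of all promoters. The known p53 sites of CDKN1A lie farther upstream than this window. A match is only a match of letters.

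Many genes of G2 and mitosis were higher, most of them by less than 0.3 log2. Of 62 tested, 27 rose and 0 fell (43.5% higher, against 7.30% of all genes), 58 had a positive change, and the median was 0.13 log2. With any array left out, 18 to 27 rose. ZW10, which recruits dynein to the kinetochore, led with 518, 524 and 522 on the si-MBD5 arrays and 319.5, 335 and 347 on the si-Control arrays (log2 0.62, SE 0.04, limma adjusted p = 1.30e-06). CENPA, the histone variant of centromeres, read 1450.0, 1396 and 1416 against 959.5, 1053 and 1180.0 (log2 0.42, limma adjusted p = 0.000356). The si-Control arrays of CENPA were spread more widely than the si-MBD5 arrays, and the groups still did not overlap. BIRC5, the survivin subunit of the chromosomal passenger complex, rose from 795 ± 7.66 to 983 ± 31.7, with 8 of its 11 probe sets higher and 0 lower. CDC25C, the phosphatase that activates CDK1, rose from 127 ± 9.83 to 160.4 ± 4.35, the condensin subunit NCAPH from 293 ± 5.10 to 351 ± 16.4, and HMMR, a spindle protein and hyaluronan receptor, from 711 ± 11.6 to 842 ± 24.2. CENPF, AURKB, CENPE, BUB1, KIF2C, KIF4A and KNL1 rose by 0.23 to 0.30 log2, and the mitotic cyclins CCNB1 and CCNB2 by 0.14 each. CDK1 itself (log2 0.07), PLK1 (0.13), FOXM1 (0.14) and TOP2A (0.07) did not pass.

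**Figure D3:**
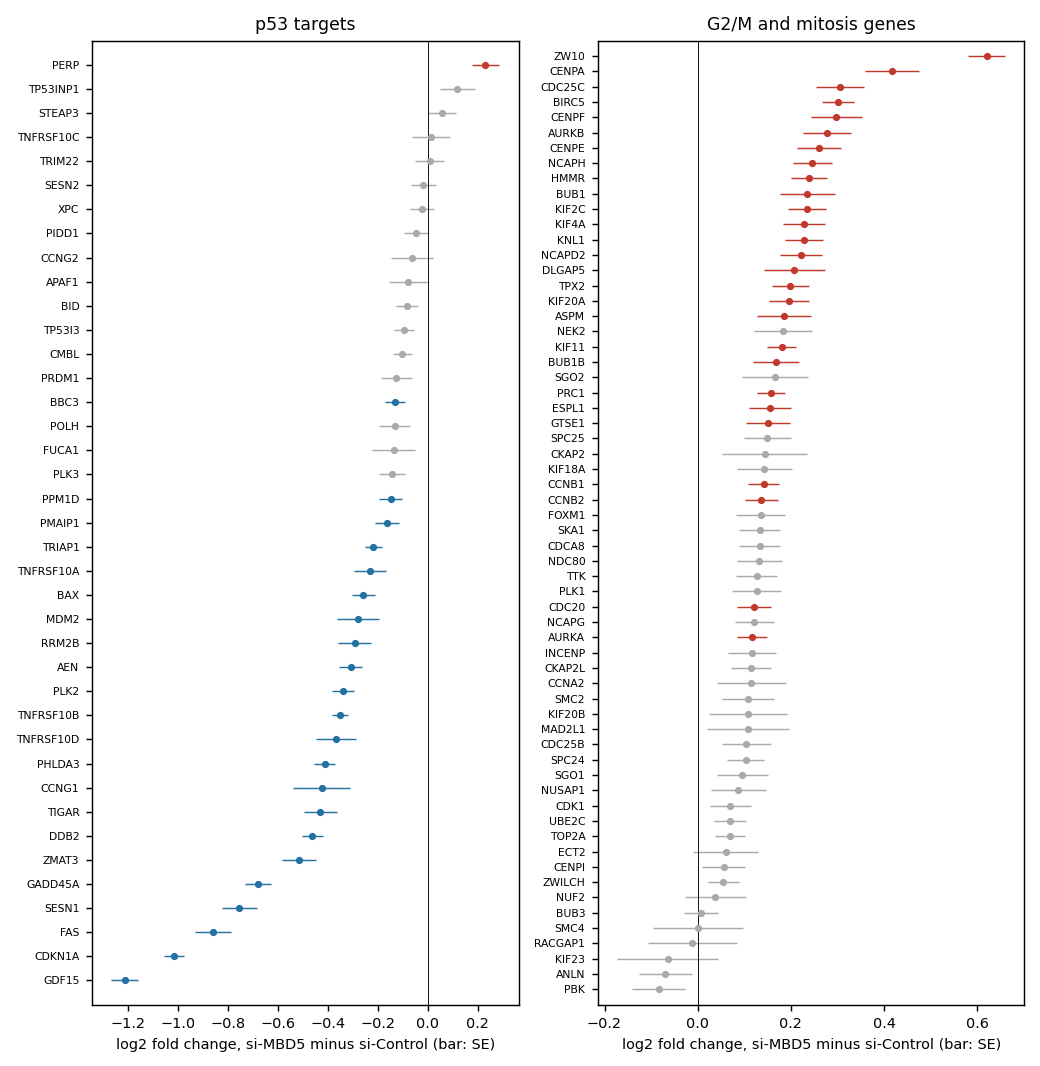
Log2 fold change, si-MBD5 minus si-Control, with its SE (horizontal bars), for every tested p53 target (left) and G2/M gene (right); red and blue points passed as higher and lower, grey ones did not. On the left 22 of 39 passed as lower and 1, PERP, as higher, and on the right 27 of 62 passed as higher and 0 as lower.

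The promoters of the 4 risen genes of this list with the smallest adjusted p among those in the promoter table used are shown because many mitotic genes share 2 elements. Capitals mark the CCAAT box, the letters CCAAT or ATTGG, which NF-Y binds, and the CHR element, the letters TTTGAA or TTCAAA, a site of the MuvB complexes that time mitotic genes. The 250 bases before the gene start (GRCh38.p14) are at chr11:113773693-113773942 (minus strand), chr2:26785806-26786055, chr5:163460382-163460631 and chr2:96335516-96335765 (plus strand).
ZW10: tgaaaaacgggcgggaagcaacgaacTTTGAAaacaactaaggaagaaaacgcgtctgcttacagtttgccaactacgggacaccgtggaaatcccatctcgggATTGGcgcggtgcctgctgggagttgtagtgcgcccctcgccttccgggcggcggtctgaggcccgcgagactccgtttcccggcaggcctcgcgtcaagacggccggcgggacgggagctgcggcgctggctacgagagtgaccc
CENPA: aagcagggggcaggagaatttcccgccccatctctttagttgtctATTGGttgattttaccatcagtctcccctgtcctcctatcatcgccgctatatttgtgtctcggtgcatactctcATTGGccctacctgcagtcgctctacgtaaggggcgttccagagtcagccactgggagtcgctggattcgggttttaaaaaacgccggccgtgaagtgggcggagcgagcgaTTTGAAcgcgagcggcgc
HMMR: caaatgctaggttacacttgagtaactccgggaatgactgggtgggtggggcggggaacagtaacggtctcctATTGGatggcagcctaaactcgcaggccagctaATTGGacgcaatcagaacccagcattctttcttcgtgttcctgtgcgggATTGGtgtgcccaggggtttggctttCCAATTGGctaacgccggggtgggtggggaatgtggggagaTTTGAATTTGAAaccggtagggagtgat
NCAPH: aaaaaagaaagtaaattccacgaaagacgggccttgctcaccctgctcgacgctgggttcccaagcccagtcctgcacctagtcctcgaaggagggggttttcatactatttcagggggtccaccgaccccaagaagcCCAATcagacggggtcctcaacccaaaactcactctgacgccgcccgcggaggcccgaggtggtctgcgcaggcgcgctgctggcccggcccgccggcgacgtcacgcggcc
ZW10 held 1 of each element, CENPA 2 CCAAT boxes and 1 CHR element, HMMR 5 and 2, and NCAPH 1 CCAAT box and 0 CHR elements. In HMMR 2 of the CCAAT boxes overlap, one on each strand. Among 23 promoters of listed genes that rose, 19 held a CCAAT box (82.6%) and 14 a CHR element (60.9%). Among 29 of listed genes that did not pass, 17 held a CCAAT box (58.6%) and 13 a CHR element (44.8%). Over all 27305 promoters the shares were 33.0% and 13.6%.

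Of 54 genes that start or carry out DNA replication, 9 rose (16.7%, against 7.30% of all genes) and 2 fell, CCND1 and UHRF1 (median log2 0.04). There was 1 fall without si-Control replicate 3 or si-MBD5 replicate 1, and the call on UHRF1 ended in 4 of the alternatives. TK1, the thymidine kinase of dividing cells, rose from 983 ± 31.9 to 1159 ± 47.4 and the G1 cyclin CCND3 from 755 ± 32.0 to 908 ± 19.4. TIPIN, a fork protection factor, read 436, 436 and 438 against 382, 372 and 359, higher on all 3 of its probe sets. CCND1, the D-type cyclin that ERK signalling induces, went the other way, with 286, 289 and 272 against 351, 351 and 367 (log2 -0.32, limma adjusted p = 0.000187). Of 31 homologous recombination and Fanconi anaemia genes 6 rose (19.4%, against 7.30% of all genes) and 0 fell, 3 rising without si-MBD5 replicate 1. The helicase BLM (log2 0.23), the translocase RAD54B (0.20) and the nuclease EXO1 (0.19) were among them. Of 20 replication-dependent histone genes 3 rose and 0 fell. H2BC5 rose from 461 ± 41.3 to 602 ± 30.7 on all 3 of its probe sets, and H2BC11 from 27.2 ± 2.75 to 36.1 ± 1.70.

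Genes of the NF-kB and ERK lists were, where they passed, lower in all but 1 case. In the list of NF-kB targets and cytokines 8 of 20 fell and 0 rose (median log2 -0.15), and 5 fell without si-Control replicate 2 or without si-MBD5 replicate 1. IER3, an early response gene, read 614, 629 and 627 on the si-MBD5 arrays and 932, 912 and 865 on the si-Control arrays (log2 -0.52, limma adjusted p = 6.80e-06). NFKBIA, the inhibitor that NF-kB induces against itself, fell from 443 ± 9.48 to 340.0 ± 7.02 on all 3 of its probe sets. NFKBIE (log2 -0.44), NFKB2 (-0.40) and NFKB1 (-0.16) encode another inhibitor and subunits of the factor itself. In the list of ERK output and immediate early genes 11 of 29 fell (37.9%) and 1, EGR1, rose (median log2 -0.10). DUSP5 and DUSP4, phosphatases that switch ERK off, read 142 ± 5.02 against 206 ± 16.8 and 416 ± 10.8 against 532 ± 23.7. ETV5, an ETS factor that marks ERK activity, read 135, 142 and 135 against 207, 189 and 192, and the ephrin receptor EPHA2 fell from 177 ± 1.98 to 138 ± 3.95. EGR1, a zinc finger factor, read 199.7 ± 7.25 against 177 ± 7.10 (log2 0.16, limma adjusted p = 0.024), and 0 of the list rose without si-Control replicate 1 or 2 or si-MBD5 replicate 2.

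Receptors and signal carriers of the interleukin-6 family moved in both directions, 3 higher and 4 lower of 19. By share, 15.8% were higher and 21.1% lower, against 7.30% and 8.99% of all genes. IL6ST, the gp130 chain that most receptors of this family share, read 555, 539 and 457 against 916, 942 and 1006. It fell on 5 of 6 probe sets (log2 -0.87 to -0.14), and the call on the gene ended with the _x_at and _s_at probe sets left out (limma adjusted p = 0.0692). OSMR, the chain that pairs with gp130 for oncostatin M, read 431, 436 and 484 against 331, 321 and 319. Here the si-MBD5 arrays were the higher ones (log2 0.46, limma adjusted p = 2.77e-05), while the second OSMR probe set above the filter, at -0.11, did not pass. SOCS2, a feedback inhibitor of cytokine receptors, fell from 186 ± 13.1 to 148 ± 1.07, and PTPN11, the phosphatase SHP2, rose from 233 ± 5.02 to 277 ± 5.58. Of 20 type I interferon response genes 4 fell and 1 rose (median log2 -0.04), 0 rising without si-Control replicate 1 or 2 or si-MBD5 replicate 1 or 2, with the transcription factor IRF1 (log2 -0.42), the ubiquitin-like ISG15 (-0.25) and IFIT2 (-0.28) among the falls. Of 14 genes that handle small RNAs, 2 fell, TNRC6A and DICER1 (1 without si-Control replicate 2 or si-MBD5 replicate 1 or 3), and 1 rose. The share higher, 7.14%, was close to the 7.30% of all genes, and the share lower was 14.3%, against 8.99%. TNRC6A, the scaffold of silencing complexes, read 674, 655 and 469 against 828, 757 and 879.8, with replicate 3 the lowest, and DROSHA, which cuts microRNA precursors, rose (log2 0.19).

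Of 22 genes of antigen presentation 10 fell and 0 rose (45.5% lower, against 8.99% of all genes), and the median over the list was -0.06 log2. PSMB9, a catalytic subunit of the immunoproteasome, read 103, 99.3 and 103 against 159.5, 163 and 152 (log2 -0.56, limma adjusted p = 5.17e-06). Of its 3 probe sets 2 fell. PSMB8, its partner subunit, fell from 306 ± 21.7 to 239 ± 9.81, TAP1, the peptide transporter, from 269.6 ± 12.8 to 205 ± 1.72, the proteasome activator PSME2 from 851 ± 56.9 to 686 ± 25.2, and HLA-B from 424 ± 20.2 to 353 ± 7.40. HLA class I genes are near-identical in parts, so their probe sets may share RNA.

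In glutathione synthesis and ferroptosis genes, which guard membranes against lipid peroxidation, 9 of 28 fell and 2 rose, 1 without si-Control replicate 1 (median log2 -0.08). By share, 32.1% were lower and 7.14% higher, against 8.99% and 7.30% of all genes. GCLC and GSS carry the 2 steps of glutathione synthesis. GCLC read 416, 415 and 364 against 534, 515 and 553 and GSS 268, 286 and 273 against 315, 325 and 316, without overlap in either gene. PGD, a source of NADPH in the pentose phosphate pathway, fell from 374 ± 15.9 to 294 ± 10.8, and NQO1, a quinone reductase, from 3577 ± 84.5 to 3264 ± 70.1. SLC7A11, the cystine importer that feeds the same synthesis, rose instead, from 1000.2 ± 30.2 to 1142 ± 70.2 on all 3 of its probe sets (log2 0.19, limma adjusted p = 0.0114). Glycolysis and hypoxia genes had 4 of 34 higher, 2 without si-Control replicate 2 or si-MBD5 replicate 2, and 5 lower, 2 without si-Control replicate 1 and 3 without si-Control replicate 2. The shares were 11.8% higher and 14.7% lower, against 7.30% and 8.99% of all genes. ADM, a vasodilator peptide that hypoxia induces, fell from 1699 ± 13.3 to 1352 ± 45.9, and the collagen hydroxylase P4HA1 rose from 375 ± 13.8 to 431 ± 13.5. Of 37 subunits of oxidative phosphorylation 8 fell (21.6%, against 8.99% of all genes) and 0 rose (median log2 -0.06). Only 3 or 4 fell without si-Control replicate 1 or 2 or si-MBD5 replicate 1. COX7B, of cytochrome c oxidase, fell from 3906 ± 17.3 to 3610.5 ± 59.0.

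**Figure D4:**
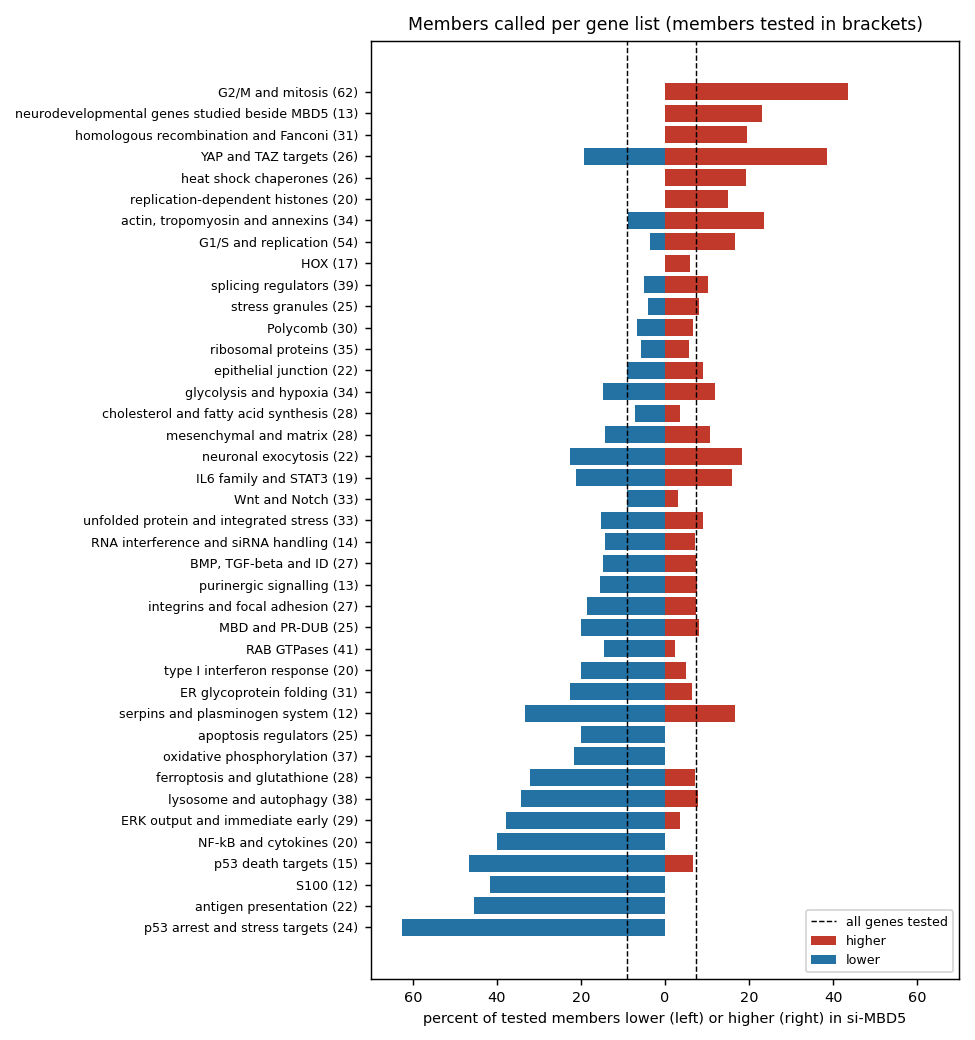
Percent of tested members of each gene list that were lower (blue, to the left) or higher (red, to the right) in si-MBD5, with the number tested in brackets; dashed lines mark the shares over all genes, 8.99% lower and 7.30% higher. The longest bars are p53 arrest and stress targets to the left (62.5%) and G2/M genes to the right (43.5%).

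Heat shock chaperones that passed were all higher, while folding genes of the endoplasmic reticulum passed in both directions. Of 26 heat shock chaperones 5 rose (19.2%, against 7.30% of all genes) and 0 fell (median log2 0.02). HSP90AA1, the inducible HSP90, read 1522, 1518 and 1579 against 1231, 1168 and 1248 (log2 0.34, limma adjusted p = 2.52e-05), and HSPD1, the mitochondrial HSP60, rose from 2404 ± 62.8 to 2727 ± 87.5. In ER glycoprotein folding 2 of 31 rose (6.45%, against 7.30% of all genes), 1 without si-Control replicate 2 or 3. In the same list 7 fell (22.6%, against 8.99%), 3 or 4 without si-Control replicate 1, 2 or 3 or si-MBD5 replicate 1. GANAB, the catalytic subunit of glucosidase II, which trims glucose from new glycoproteins, read 738, 862 and 750.2 against 450.5, 481 and 470.5. It had the largest rise of the list (log2 0.72), with all 5 probe sets higher (0.56 to 0.72). ERP44 (log2 -0.19), which returns unfinished proteins to the reticulum, and EDEM2 (-0.21), which marks misfolded ones for disposal, fell. Unfolded protein and integrated stress genes had 3 of 33 higher and 5 lower, 3 lower without si-Control replicate 1 or 2 or si-MBD5 replicate 1. The shares were 9.09% higher and 15.2% lower, against 7.30% and 8.99% of all genes. The ER-bound factor CREB3L2 rose from 1252 ± 35.6 to 1640.3 ± 42.6 (log2 0.39, limma adjusted p = 7.45e-06), and DNAJB9, a chaperone that the pathway induces, fell from 567 ± 48.8 to 462 ± 11.4.

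Genes of cell shape and adhesion passed in both directions, and the shares over all genes were 7.30% higher and 8.99% lower. Of 26 YAP and TAZ targets, the genes of the Hippo pathway's effectors, 10 rose and 5 fell (38.5% higher). THBS1, a matricellular protein, read 304, 313 and 265 against 198, 212 and 245, and CCN1, another, 338, 362 and 341 against 263, 268 and 291. IGFBP3 (log2 0.36), which binds insulin-like growth factors, RBMS3 (0.40) and the Hippo kinase LATS2 (0.29) also rose. NT5E, the ectonucleotidase CD73, was the deepest fall of the list, from 77.4 ± 7.55 to 49.5 ± 6.64 (log2 -0.51). Of 27 integrin and focal adhesion genes 5 fell (18.5%) and 2 rose (7.41%), 0 without si-Control replicate 1 or 2. The collagen receptor chain ITGA2 read 26.4, 27.02 and 27.7 against 47.3, 49.4 and 50.1 and the laminin receptor chains ITGA3 and ITGA6 65.1 ± 5.42 against 101 ± 1.22 and 76.3 ± 1.06 against 107 ± 11.3. These 3 chains, all of which pair with integrin beta 1, had changes of -0.59, -0.53 and -0.41 log2. Of 28 mesenchymal and matrix genes 3 rose (10.7%) and 4 fell (14.3%), 2 without si-Control replicate 2. LOX, which crosslinks collagen, was higher (233 ± 5.53 against 176 ± 5.23) and TIMP2, a metalloprotease inhibitor, lower (739 ± 25.3 against 902 ± 15.3). Of 22 epithelial junction genes 2 rose, 1 without si-Control replicate 1 or 3 or si-MBD5 replicate 2. In the same list 2 fell, 1 without si-Control replicate 2 or si-MBD5 replicate 1. Each share was 9.09%, close to that of all genes. DSG2, a desmosomal cadherin, fell from 601 ± 29.7 to 493 ± 10.4 and the keratin KRT80 rose from 75.7 ± 2.38 to 95.2 ± 1.21.

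In the list of actin, tropomyosins and annexins 8 of 34 rose and 3 fell, 5 higher without si-Control replicate 2 or si-MBD5 replicate 2. That was 23.5% higher and 8.82% lower, against 7.30% and 8.99% of all genes. MYLK3, a myosin light chain kinase, read 166, 176 and 166 against 90.5, 102 and 92.5 (log2 0.74), and ANXA6, a calcium-dependent membrane binder, 138, 156 and 149 against 92.3, 92.3 and 93.2 (log2 0.59). Both were taken from genes whose groups did not overlap, so their separation is no result. TPM1, which coils along actin filaments and has many isoforms, gave opposite results by probe set. Its brightest probe set fell from 1259 ± 86.3 to 851 ± 32.3 (log2 -0.55), and 3 others fell by 0.43 to 0.57, while 3 rose by 0.28, 0.29 and 0.33 and 2 did not pass. TPM4, a related tropomyosin, was higher on all 5 of its probe sets, by 0.21 log2 on the brightest and by up to 1.01 on the others. In the S100 list of small calcium-binding proteins 5 of 12 fell (41.7%) and 0 rose (median log2 -0.09). S100A16 read 436, 443 and 466 against 826, 855 and 802 (log2 -0.86, limma adjusted p = 2.99e-08), with both probe sets lower, and S100A10 and S100A11 fell by 0.26 and 0.24 log2.

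Lysosome and autophagy genes were more often lower, 13 of 38 against 3 higher (median log2 -0.08). By share, 34.2% were lower and 7.89% higher, against 8.99% and 7.30% of all genes. Without si-Control replicate 1 or 2 or si-MBD5 replicate 1, 6 or 7 fell. GLA, an alpha-galactosidase, fell (log2 -0.21), as did the cholesterol carrier NPC2 from 2558 ± 50.9 to 2237 ± 22.6 and the protease CTSA from 763 ± 22.6 to 665 ± 24.4. CTSZ, another lysosomal protease, rose from 701 ± 49.9 to 875 ± 40.5. The membrane trafficking gene RAB8B fell from 194 ± 19.9 to 94.6 ± 8.46 (log2 -0.92). RAB10, of the same exocytic branch, fell from 851 ± 23.2 to 706 ± 11.7. Of 41 RAB GTPases 6 fell (14.6%, against 8.99% of all genes) and 1 rose (2.44%, against 7.30%). Only 2 or 3 fell without si-Control replicate 2 or 3 or si-MBD5 replicate 1 or 3. Of 22 genes of regulated exocytosis 4 rose and 5 fell, 3 without si-Control replicate 2. That was 18.2% higher and 22.7% lower, against 7.30% and 8.99% of all genes. SERPINI1, a serpin of neurons, read 78.2, 81.3 and 77.6 against 43.6, 45.2 and 45.5 (log2 0.65). STXBP6, which binds syntaxins, read 218, 253 and 244 against 142, 149.9 and 155 (log2 0.62). UNC13A, which primes synaptic vesicles, fell from 93.6 ± 2.89 to 65.7 ± 2.92 and the fusion protein VAMP8 fell too (log2 -0.21).

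Of 25 tested genes of the methyl-CpG-binding family, PR-DUB and their partners, 2 rose and 5 fell. There was 1 rise without si-Control replicate 1 or 2 or any 1 of the 3 si-MBD5 arrays, and there were 3 falls without si-MBD5 replicate 1. MBD6, the closest relative of MBD5, read 40.3 ± 3.70 against 41.2 ± 3.10 (limma adjusted p = 0.847), and MBD1, MBD2 and MBD3 did not pass either. TET2, which oxidises methylated cytosine, fell from 91.4 ± 5.67 to 66.97 ± 9.53 (log2 -0.38), a call that ended without si-Control replicate 2 (limma adjusted p = 0.0501) or si-MBD5 replicate 1 (limma adjusted p = 0.0517). MBD4, a glycosylase of deaminated CpG sites, ASXL1, the scaffold subunit of PR-DUB, and OGT, the O-GlcNAc transferase bound to it, had log2 changes of -0.19, -0.23 and -0.22. In all 3, as in the forkhead partner FOXK2 (log2 0.20), only the brightest probe set passed, and the call ended on the mean of the probe sets, with limma adjusted p of 0.0664 for MBD4, 0.994 for ASXL1, 0.217 for OGT and 0.0918 for FOXK2. Of 30 Polycomb genes 2 rose and 2 fell, 1 without si-Control replicate 2 or si-MBD5 replicate 1 or 3, shares close to those of all genes. KDM2B, which brings a Polycomb complex to CpG islands, read 206, 217 and 212 against 151, 159 and 155, and PHF19, a reader bound to the methyltransferase complex, rose from 585 ± 40.1 to 707 ± 25.6. EED, a core subunit of that complex, fell from 1269 ± 9.37 to 1130.4 ± 48.3.

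Of 13 genes named beside MBD5 in neurodevelopmental disorders 3 rose (23.1%, against 7.30% of all genes) and 0 fell (against 8.99%). Their median was 0.0034 log2 and turned to -0.0086 with each array centred on its median. UBE3A, the ubiquitin ligase of Angelman syndrome, read 1236, 1323 and 1185 against 945, 962 and 943 (log2 0.39, limma adjusted p = 3.93e-05), and LYPD6, a modulator of nicotinic receptors, rose from 55.4 ± 3.81 to 71.9 ± 2.69. Of 39 splicing regulators 4 rose (10.3%, against 7.30% of all genes) and 2 fell (5.13%, against 8.99%). There were 1 to 7 rises and 2 to 5 falls as single arrays were left out. PTBP2, the neuronal form of the polypyrimidine tract binder, read 308, 296 and 271 against 452, 471 and 489, lower on both probe sets, and PTBP1, the form of other cells, rose from 1558 ± 37.2 to 1746 ± 72.0. QKI, an RNA-binding STAR protein, fell from 747 ± 41.5 to 512 ± 58.0. In purinergic signalling, P2RY6, a receptor for uridine diphosphate, had the largest rise of any gene that passed, 194, 229 and 218 against 113, 132 and 112 (log2 0.77, SE 0.064), and 10 of the 13 listed genes did not pass.

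Of 33 Wnt and Notch genes 1 rose and 3 fell, 1 without si-Control replicate 2: the receptor NOTCH3 fell from 140.4 ± 3.07 to 104 ± 1.63, and NKD2, an inhibitor of Wnt signals, rose from 199 ± 7.83 to 234 ± 6.65. Of 27 BMP and TGF-beta genes 2 rose, 1 without si-Control replicate 1 or si-MBD5 replicate 1. In the same list 4 fell, among the falls SMAD3 (log2 -0.20), which carries the TGF-beta signal to the nucleus, and 2 fell without si-Control replicate 2 or si-MBD5 replicate 1 and 7 without si-MBD5 replicate 2. Of 17 HOX genes 1, HOXC6, rose and 0 fell. The shares higher were 3.03% (Wnt and Notch), 7.41% (BMP and TGF-beta) and 5.88% (HOX), against 7.30% of all genes. The shares lower were 9.09%, 14.8% and 0%, against 8.99%.

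Beyond the lists, the 30 largest rises held enzymes, receptors and structural genes. OLR1, a receptor for oxidised lipoprotein, read 401, 385 and 388 against 252, 251 and 266. PRICKLE1, of planar cell polarity, rose from 84.5 ± 3.07 to 133 ± 4.31 on all 3 of its probe sets, and TCF3, a helix-loop-helix factor, from 348 ± 7.83 to 513 ± 23.9 on all 4. PXYLP1 (log2 0.57), XYLT1 (0.49) and CHST14 (0.52) act in the making of glycosaminoglycan chains, and B4GALT1 (0.56) adds galactose to glycans. TNNC1, the calcium sensor of slow and cardiac troponin, rose from 486 ± 10.6 to 709 ± 17.2. ZDHHC16, a palmitoyltransferase, read 379, 388 and 419.5 against 250.4, 234 and 231, with all 5 probe sets between 0.62 and 0.71 log2. G3BP2, of stress granules, varied more between its arrays, with 564, 657 and 429 against 288, 339.7 and 359.9. The 30 largest rises were taken only from genes whose groups did not overlap.

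The 30 largest falls held further single genes of note for their size. STMN3, a microtubule destabiliser, read 60.7, 72.4 and 71.6 against 142, 145 and 148 (log2 -0.94). The sterol exporters ABCA1 and ABCG1 fell from 58.6 ± 3.86 to 34.4 ± 1.05 and from 164 ± 8.18 to 99.3 ± 3.89, and ABCC3, an exporter of conjugated bile compounds, from 390.0 ± 9.16 to 260.0 ± 12.6. Among 12 serpins and genes of the plasminogen system 4 fell and 2 rose, 1 without si-Control replicate 1 or 2 or si-MBD5 replicate 1. That was 33.3% lower and 16.7% higher, against 8.99% and 7.30% of all genes. SERPINE2, an extracellular inhibitor of thrombin and urokinase, read 1703, 1722 and 1718 against 2580.0, 2584 and 2516. Its arrays agreed closely within each group, and all 6 probe sets fell (log2 -0.84 to -0.26). The ETS factor ELK3 (log2 -0.65), the protease CTSS (-0.60), the sulfide oxidase SQOR (-0.57), the receptor GPRC5A (-0.56) and the complement component C3 (-0.55) also fell.

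Where a gene had several probe sets they seldom disagreed outright. Among 3853 genes with at least 3 probe sets above the filter, every probe set rose in 51 and every one fell in 37, under the fit over all 49293 probe sets (3093 passed, 6.27%, 2.96% higher and 3.31% lower). In 843 some passed, all in 1 direction, in 2910 none did, and in 12 probe sets passed in both directions. Besides TPM1 these 12 included the GTPase RAC1 (log2 -0.27 to 0.35), the silencing factor TASOR (-0.33 to 0.43) and ZNF33A (-0.43 to 0.46), named after their values were seen. The rises carried by all probe sets included LPL, which frees fatty acids from lipoproteins (2302 ± 8.97 against 1685 ± 60.4), CAV1, the coat of caveolae (log2 0.39), the adaptor FHL2 (1145 ± 9.34 against 893 ± 22.1), the topoisomerase TOP2B (log2 0.44) and the nucleolar NOLC1 (0.41). The falls included CDKN1C, a further inhibitor of cyclin-dependent kinases (378 ± 21.4 against 488 ± 6.47), ID1, an inhibitor of helix-loop-helix factors (115 ± 6.83 against 144 ± 2.94), IDH1, which makes cytosolic NADPH (log2 -0.30), the paraoxonase PON2 (-0.34) and the troponin TNNT1 (-0.45).

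Against the si-BAP1 arrays, 1240 of 12431 genes differed (9.98%), 524 higher (4.22%) and 716 lower (5.76%) in si-MBD5. Without si-MBD5 replicate 1 this was 721, and without si-BAP1 replicate 3 it was 759. In si-BAP1 against si-Control 23.5% of genes passed, 12.4% higher and 11.1% lower. The si-MBD5 and si-BAP1 changes were both taken against the same 3 si-Control arrays, so their likeness is no result, and values are given side by side. GDF15 changed by -1.21 in si-MBD5 and -1.31 in si-BAP1, CDKN1A by -1.02 and -1.03, and ZW10 by 0.62 and 0.72 log2. In 496 genes si-MBD5 differed from si-Control and from si-BAP1. It was higher than both in 79, lower than both in 191, and between them in 226 (108 above and 118 below si-Control).

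PTPN11 moved in opposite directions with the 2 treatments. It read 284, 274 and 274 in si-MBD5, 228, 233 and 238 in si-Control and 149, 167 and 142 in si-BAP1. The 3 groups did not overlap, with si-MBD5 highest (log2 0.80 against si-BAP1, limma adjusted p = 1.17e-06). DHRS2, a short-chain dehydrogenase, had the reverse order, 47.4, 51.4 and 53.7 in si-MBD5, 60.98, 60.1 and 64.2 in si-Control and 115, 122 and 125 in si-BAP1 (log2 -1.03). CCND1 and ID1 likewise fell in si-MBD5 (-0.32 and -0.28) and rose in si-BAP1 (0.17 and 0.20). QKI (-0.53 against 0.16), PTAR1 (-0.55 against 0.07) and DSG2 (-0.27 against 0.09) fell in si-MBD5 and did not pass in si-BAP1, and each differed between si-MBD5 and si-BAP1 (limma adjusted p = 2.46e-05, 4.16e-05 and 0.000123). BIRC5 and HMMR rose in si-MBD5, read 766 ± 9.23 and 707 ± 31.1 in si-BAP1, and differed as well (log2 0.35 and 0.25). S100A16 fell further in si-MBD5 than in si-BAP1 (-0.86 against -0.48), and SERPINE2, TNFRSF21, RDH10 and RRAS2 less far. Of the replication lists, 9 of 54 G1/S genes and 7 of 20 histone genes were lower in si-MBD5 than in si-BAP1, against 5.76% of all genes. H2BC5, for example, read 602 ± 30.7 in si-MBD5 and 898 ± 29.5 in si-BAP1, and SV2B, of synaptic vesicles, 98.2 ± 8.03 and 177 ± 2.99. Of 22 antigen presentation genes 7 were higher in si-MBD5 than in si-BAP1 and 0 lower, against 4.22% and 5.76% of all genes.

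**Figure D5:**
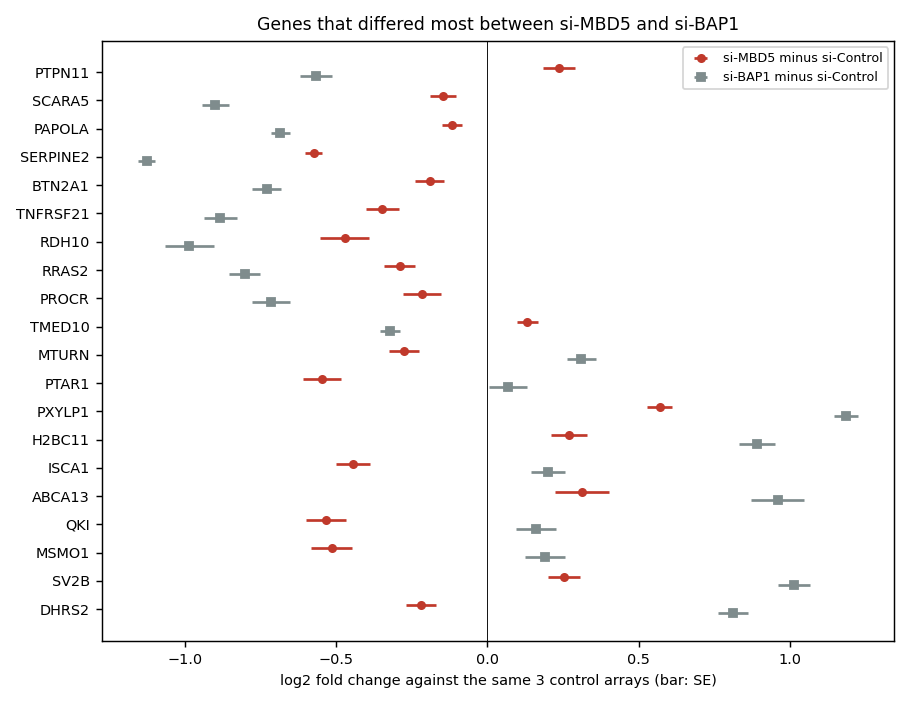
Log2 fold change against the same 3 si-Control arrays, with its SE, in si-MBD5 (red) and si-BAP1 (grey squares), for the 10 largest differences each way among genes that passed against both. PTPN11 and DHRS2 lie on opposite sides of 0 in si-MBD5 and si-BAP1, and SERPINE2 (-0.57 and -1.12) on the same side.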

How the data were processed

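Expression was measured on Affymetrix arrays of HCCC-9810 cells. The authors deposited linear intensities per probe set, made with MAS5 per the submitters' processing notes; the version and any scaling are not given in the sources used here, and the arrays' distributions were nearly the same. Of 49395 probe sets, 102 array controls were left out. Probe sets with 1 gene symbol (44988) were named through the platform annotation, 44961 of them updated by gene identifier to RefSeq and 27 kept as listed.

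The main test was limma 3.58.1 (R 4.3.3) on log2(intensity + 16), with group means over all 9 arrays (6 residual degrees of freedom), an intensity trend and Benjamini-Hochberg adjustment over 12431 genes, and separately over 49293 probe sets. The median within-group SD was 0.061 log2 and the median SE of a change 0.051 log2. The code was tested on simulated data. Single values were compared by exact permutation tests (scipy 1.17.1). Other tools were Python 3.11.15, pandas 2.3.3 and matplotlib 3.10.9.

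The members and gene lists were chosen with earlier results of these data known, so list counts stand beside the share over all genes, without a test. Genes were named by rule: the methyl-CpG-binding and PR-DUB genes; the 30 largest rises and falls that passed and whose arrays did not overlap; up to 6 members of each list with at least 3 that passed, by adjusted p; the 10 largest differences from si-BAP1 each way; and, for 10 genes each way, all of at least 3 probe sets changed. Listed genes beyond this rule (such as MDM2, CDK1, PLK1, FOXM1, TOP2A, CCNB1 and EGR1) were chosen after their values were seen. Of 8 promoters chosen by adjusted p, with genes on chromosome 8 left out, those of FAS and DDB2 are not printed. Alternatives were the added constant, normalization, filter, probe set choice, replicate block, variance model, array weights, the groups fitted and leaving out each array. Replicate numbers did not pair the samples.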

Additional observations from a re-analysis of the deposited data

How the results depend on the processing

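Counts of calls moved by over 1.5 times with array weights and with some single arrays left out, and by less with each other alternative. With array weights 3080 genes passed against si-Control, 1767 of them lower, from 2026 and 1118. Leaving out each array gave 1267 to 1959 genes, 588 to 858 higher and 679 to 1199 lower, 1768 to 2954 probe sets, and 721 to 1326 genes against si-BAP1. The share of calls that were higher, 44.8%, was 51.3% after quantile normalization and 39.2% after median centring. The replicate numbers did not pair the samples: deviations of same-numbered si-MBD5 and si-Control arrays correlated by -0.0325, 0.1314 and -0.4328 across genes. Same-numbered si-MBD5 and si-BAP1 arrays correlated by 0.0929, 0.4801 and -0.0738. Differently numbered arrays of different groups ranged from -0.5559 to 0.47, so some arrays shared deviations across groups, and the main fit has no term for this. A fit with the replicate block gave 1866 genes, 863 higher and 1003 lower, 2772 probe sets, and 1116 genes against si-BAP1. Of 262 named genes that passed, 171 kept their call in every alternative, and 91 lost it in at least 1, most often without si-Control replicate 2 (52 genes) or si-MBD5 replicate 1 (47). The change of 4 genes turned, and the cause was not tested: ASXL1 to 0.000682 log2 on the mean of its probe sets, and, with the _x_at and _s_at probe sets left out, DPAGT1 to 0.105, EIF2AK1 to -0.0884 and TMED10, against si-BAP1, to -0.0106. MBD5 itself passed in none of its settings (limma adjusted p 0.176 to 0.483). With 3 arrays a group, changes near the median SE of 0.051 log2 were not detectable, and in dim genes the added constant hides more.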
